A study of Xenopus laevis with 3 samples.

Results

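The genes described here carry placeholder names: c#orf# for an open reading frame known by its human chromosome, fam# for a family of similar sequences, and kiaa# for a long human cDNA. They were chosen by name alone, from a table of Xenopus laevis genes that have both an L and an S copy. The rule found 193 pairs, of which 62 had an orf name, 99 a fam name and 32 a kiaa name, and 33 of the names ended in -like. These are 386 gene copies of 17320 in the 8660 pairs of the table, and 6832 pairs had a symbol. Of the 386 copies, 159 carried at least 1 missense site, a variant that changes an amino acid, and so appeared among the 11603 genes with variant counts. Only 5667 of these 11603 genes are in the pair table, so all listed genes, used for comparison below, include many genes outside it.

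The variants came from RNA sequencing of whole Xenopus laevis tadpoles at Nieuwkoop-Faber stage 42. There were 3 libraries, with 1 per group: offspring of inbred albino parents, offspring of inbred pigmented J strain parents, and offspring of crosses between albino and J strain animals. Each cross contributed a pool of 10 tadpoles, libraries were built after removal of ribosomal RNA, and the labels give 30 to 47 M paired-end reads of 100 bases per library, M standing for the SI prefix mega. The strain letter codes in the labels contradict each other, so the groups follow the sample titles. The deposited tables join the 3 libraries and no column names one of them. Each value below therefore belongs to the whole series, no cross can be set beside another, and replicate spread is unknown.

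Xenopus laevis is an allotetraploid frog: an ancient hybrid of related species kept both parental genomes, and many genes persist as homeologs, one copy on the long (L) and one on the short (S) subgenome. A synonymous variant leaves the protein as it was, so the number of synonymous sites in the same transcript shows how much coding variation could be seen there. Placeholder names cover proteins of very different kinds. Several have since been given working names in human or mouse, among them regulators of RNA, vesicle tethers, casein kinase anchors and ciliary proteins, while others remain without a described function.

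Over the 159 listed copies there were 363 missense and 494 synonymous sites, so that 42.4% of their coding sites changed an amino acid (Wilson 95% interval 39.1 to 45.7). The same missense fraction was 38.5% (37.9 to 39.1) in the other listed genes with a symbol and 42.9% (42.5 to 43.2) in all listed genes. In all listed genes of the pair table it was 40.2% (39.7 to 40.7). The 3 name families had different values. The orf copies held 97 missense and 98 synonymous sites (49.7%, interval 42.8 to 56.7), while the kiaa copies had 137 synonymous sites and a fraction of 43.6% (37.5 to 49.9). The fam copies held 160 and 259 (38.2%, 33.7 to 42.9). Of these, 33 and 76 lay in 9 copies of fam83 paralogs (30.3%). These intervals cover counting error only and treat sites of a gene as independent, although neighbouring sites are inherited together. A copy is listed only if it has at least 1 missense site, which raises the fraction most where copies hold few sites. No synonymous site was held by 36.2% of listed orf copies, 22.4% of fam copies and 19.4% of kiaa copies. How much of the difference between families comes from this was not tested.

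A missense site was found in 41.2% of the 386 member copies, against 32.3% of the 13278 other copies with a symbol and 32.7% of all copies in the pair table. It was found in 56.2% of kiaa copies (36 of 64), 38.4% of fam copies (76 of 198) and 37.9% of orf copies (47 listed). Neither transcript length nor expression entered these shares. Of the listed member copies, 78 (49.1%) held a single missense site and 41 (25.8%) held no synonymous site, beside 50.7% and 26.8% of all listed genes. In the other listed genes with a symbol these shares were 53.69% and 21.45%. The most missense sites in a member copy were 10, beside 101 in a gene of the whole table.

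The PolyPhen-2 program scored each change by how well the new residue is tolerated among aligned related proteins. It gave a probability of damage from 0 to 1, which the authors' table splits into benign, possibly damaging from 0.447 and probably damaging from 0.909. Of the 344 member sites with a prediction, 73 were damaging in the wider sense of both upper classes, 41 possibly and 32 probably. This share was 21.2% (Wilson interval 17.2 to 25.9) in members, 21.4% in other symbol-bearing genes and 19.9% over the whole table. The kiaa copies had 24 damaging sites of 101 (23.8%), the orf copies 20 of 91 (22%) and the fam copies 29 of 152 (19.1%). At least 1 damaging site was present in 57 member copies (35.8%), against 31.9% of other listed genes with a symbol and 29.9% of all listed genes.

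**Figure D1:**
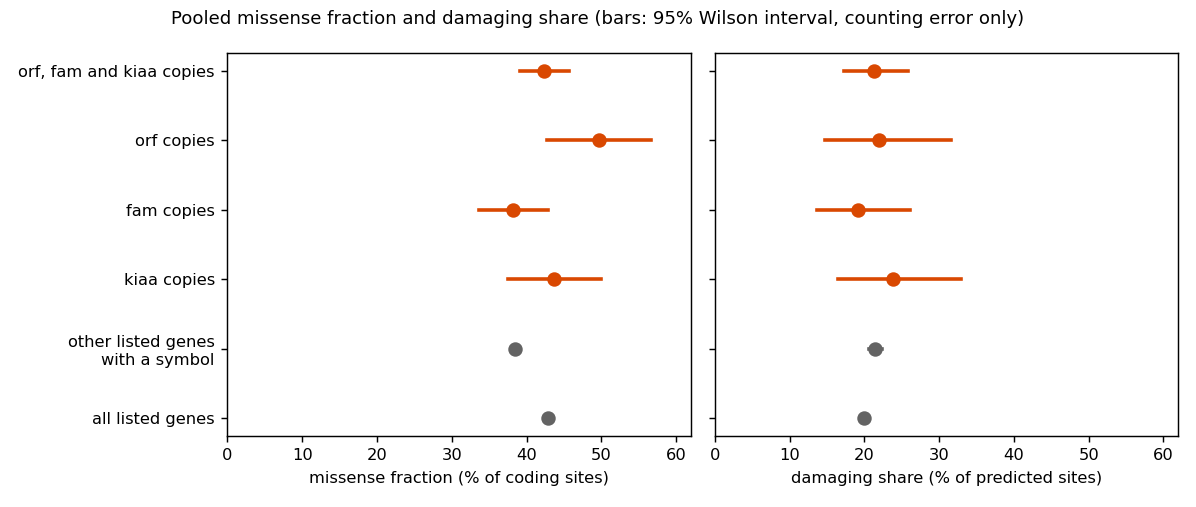
Missense fraction (left, percent of missense plus synonymous sites) and damaging share (right, percent of sites with a prediction) of the orf, fam and kiaa copies, of each name family, of the other listed genes with a symbol and of all listed genes, pooled over copies. Points are pooled shares and bars are Wilson 95% intervals for counting error; the orf copies have the highest missense fraction of the families (49.7%), and the damaging shares of the families lie between 19.1% and 23.8%.

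The question for single copies was which of these genes hold the most changes. The pair kiaa0430 stood first. Its human counterpart is MARF1, known in mouse as a factor that controls RNA stability and meiosis in oocytes. Its L copy (Xelaev18045180m) held 10 missense and 7 synonymous sites, and its S copy (Xelaev18047508m) 8 and 4. Damaging sites numbered 3 in kiaa0430.L and 2 in kiaa0430.S. Both copies thus carried more missense than synonymous sites, and both were among the 5 copies with the most missense sites.

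The pair kiaa1107, named btbd8 in RefSeq and known in mouse neurons for its part in synaptic vesicle endocytosis, followed the same pattern of similar copies. Its L copy held 8 missense and 6 synonymous sites and its S copy 7 and 6. The copies of fam169a also resembled each other, with 5 missense and 6 synonymous sites in L and 7 and 12 in S. In these 3 pairs the L and S numbers of missense sites lay within 2 of each other.

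Members of the fam83 family, whose human proteins hold casein kinase 1 through a shared domain, filled both places after kiaa0430.L. The S copy of fam83e-like (Xelaev18037894m) held 9 missense and 11 synonymous sites, and the L copy of fam83b (Xelaev18027352m), which acts in RAS and MAP kinase signalling in human cells, held 9 and 9. Here the partner copies had far fewer: 1 missense site was listed in fam83e-like.L and 1 in fam83b.S.

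Copies with 6 missense sites were c2orf69.L (4 synonymous), a gene mutated in a human mitochondrial disease, kiaa2026.S (4), fam135b.L (10) and c10orf118-like.S (12). The human counterpart of c10orf118 is CCDC186, which acts in the making of dense-core vesicles. Copies with 5 missense sites were fam63b.S, c17orf53-like.L, fam65b.S, fam91a1.S, fam83g.S and fam167a-like.L, besides fam169a.L. In all, 19 member copies held 5 or more missense sites, and c6orf136.S was the 1 copy among them without a synonymous site.

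**Figure D2:**
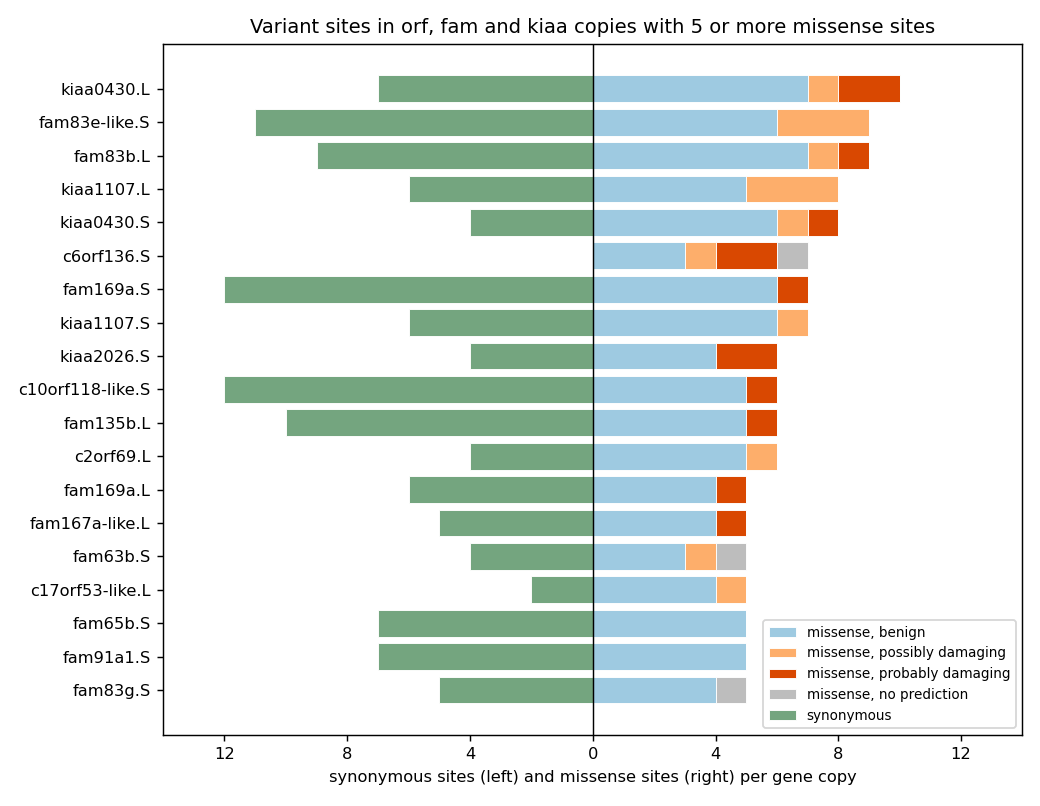
Missense sites (right of the zero line, by predicted class) and synonymous sites (left) in the 19 orf, fam and kiaa copies with 5 or more missense sites, with each bar a count of sites over the 3 joined libraries. The copy kiaa0430.L has the longest missense bar (10 sites), c6orf136.S has 7 missense and 0 synonymous sites, and fam65b.S and fam91a1.S have 5 benign sites each.

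Missense and synonymous sites of each copy were then set against those of the remaining genes with Fisher's exact test. The remaining genes include those with too few sites to be tested. Their missense fractions are raised most, since a gene is listed only with at least 1 missense site. The test also treats sites of a gene as independent, and how far either point moves p was not tested. Of the 66 member copies with at least 5 sites, 0 passed the Benjamini-Hochberg adjusted threshold of 0.05, while 1.32% of the 5005 genes tested passed. Copies with 7 or fewer sites could not have passed, so for them the test decides nothing. Whether copies with slightly more sites could have passed was not worked out. Even 7 missense sites of 7 gave a Fisher's exact adjusted p of 0.132. At the low end, 1 of 7, the fewest a listed copy can have, gave a Fisher's exact unadjusted p of 0.251. With 9 sites, 1 missense site gave 0.0879 in the same test, so no listed copy with 9 or fewer sites could have been called low. How many sites a low call needs was not worked out, and most members named at the low end may have too few. An unadjusted p under 0.05 was found for 2 members (3.03%) and for 543 of all genes (10.8%). The median missense fraction over the tested members was 34.8%, beside 33.3% over all tested genes. Of the members, 20 lay above the fraction of the other genes and 46 (69.7%) below it, beside 66.6% below over all tested genes. The other 93 listed copies had fewer than 5 sites and were not tested.

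The largest departure among members was in c6orf136, a gene without a settled function. Its S copy (Xelaev18042480m) held 7 missense and 0 synonymous sites (Fisher's exact p = 0.00266, Benjamini-Hochberg adjusted p = 0.132). Its L copy (Xelaev18039229m) held 2 and 0, which was too few for the test. A pair with both copies listed and no synonymous site in either was found 3 times among 48 member pairs (6.25%), the others being fam117b with 4 missense sites and kiaa1324 with 2. Over all 1329 such pairs it was found 70 times (5.27%), and 3 of them held 9 or more missense sites, c6orf136 with its 9 included.

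Other members with a high fraction did not pass and had wide intervals. The copy kiaa0430.S had 66.7% missense sites (39.1 to 86.2) and kiaa0430.L 58.8% (36.0 to 78.4). The copy c17orf53-like.L held 5 missense and 2 synonymous sites. Its human counterpart HROB brings the MCM8 and MCM9 helicase to damaged DNA. In c2orf50.S there were 4 and 1. The Benjamini-Hochberg adjusted p of these 4 copies in Fisher's exact test lay between 0.637 and 0.676.

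At the low end stood fam83g.L (Xelaev18045506m), a gene known as PAWS1 that takes part in BMP and Wnt signalling in human cells and Xenopus embryos. It held 4 missense and 19 synonymous sites, or 17.4% (7.0 to 37.1), and had the most coding sites of any member, 23 in all (Fisher's exact p = 0.0184, adjusted p = 0.283). Its paralog fam83h.L, mutated in human enamel disease, held 2 and 11 (Fisher's exact adjusted p = 0.407). Next came kiaa1217-like.S, the counterpart of the mouse sickle tail gene of the vertebral column, with 3 and 13. The copies fam135b.S and kiaa0319l.S, the second a receptor used by adeno-associated virus in human cells, held 2 and 10 each. The adjusted p of these 3 was 0.525 in Fisher's exact test. The copies above are given in order of p, not of fraction. The lowest fraction among tested members was that of kiaa1239-like.L, with 1 and 8, or 11.1% (2.0 to 43.5), at the same adjusted p. Holding the fewest missense sites a listed copy can have, kiaa1239-like.L could not have been called low.

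**Figure D3:**
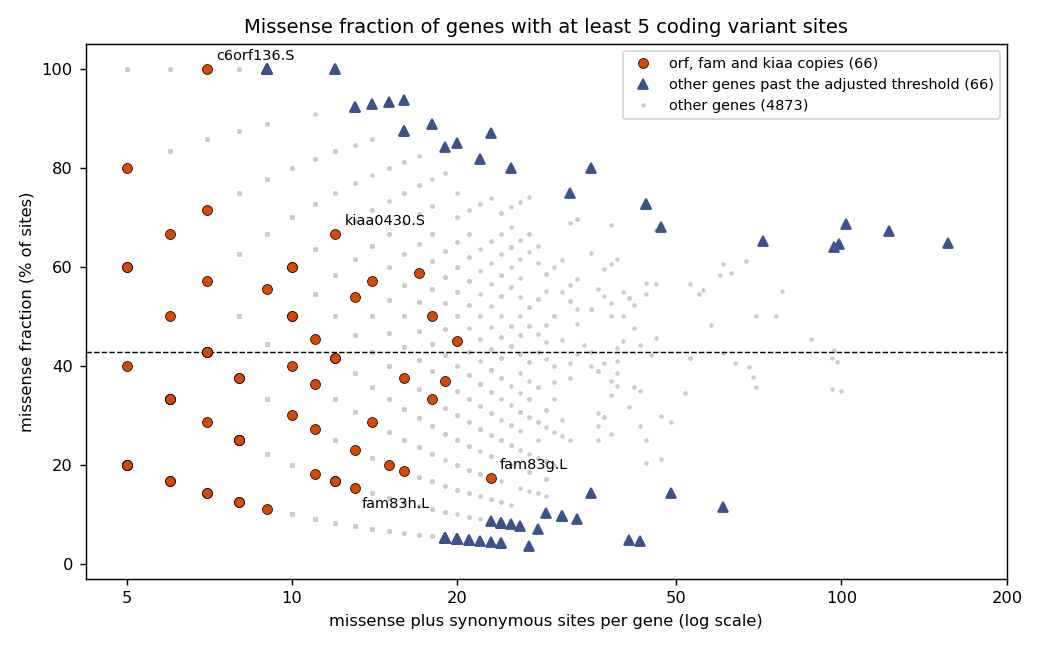
Missense fraction (percent of coding variant sites) against the number of missense plus synonymous sites per gene (log scale) for 66 orf, fam and kiaa copies (circles), 66 other genes past the adjusted threshold (triangles) and the remaining tested genes (dots); the dashed line is the fraction over all listed genes, 42.9%. Member copies reach up to 23 sites (fam83g.L), and none of the triangles is a member.

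The next question was which changes were predicted to matter for the protein. Substitutions are written with the reference residue, the position counted in the authors' protein model, and the variant residue. Of the 344 predicted member sites, 13 (3.78%) reached a probability of 0.99 or more, against 2.57% of all predicted sites. A probability of 0.9 or more was reached by 36 (10.5%), against 7.36%. The probably damaging class held 32 of the 344 member sites, and 704 of 8675 in the other listed genes with a symbol. At the other end, 104 member sites (30.2%) had a probability of 0, against 26.6%. The median probability was 0.014 in members and 0.010 in all genes.

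Genes named in this paragraph were named for these single sites, after their values were seen. The probability was 1 for P280H in c6orf136.S, F1052V in kiaa1033-like.S and G1307S in kiaa0922-like.S. The human counterpart of kiaa1033 is a subunit of the WASH complex, which builds actin on endosomes. The probability was 0.999 for T549K in fam83b.L and P130T in fam83e-like.L. Both copies of kiaa0430 were represented, by S867Y (0.998) and L1212V (0.996) in L and by V1426I (0.994) in S. Conservative exchanges also reached this range: E54D in fam167a-like.L and V180L in fam169a.L at 0.996, and D1566E in kiaa1755-like.S at 0.997. The part of that protein model with D1566E may not belong to the gene of that name, which was not tested. The remaining sites were A1229T in kiaa1239-like.L at 0.996 and P395A in c11orf30-like.L at 0.994. The human counterpart of c11orf30 is EMSY, a partner of BRCA2.

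The number of aligned residues behind a score shows how many related proteins it was read from. For the 13 sites at 0.99 or more it ranged from 16 in c11orf30-like.L to 98 in kiaa1755-like.S. In kiaa1107.L it was much smaller: A6D (0.788), N614H (0.737) and L1280P (0.887) rested on 2, 3 and 2 aligned residues. In fam83e-like.S, A347V (0.691) and D352N (0.737) rested on 1 residue each, while S229N (0.637) rested on 46. Within c6orf136.S, P280H rested on 62 aligned residues, A360E (0.935) on 6 and S93P (0.514) on 2.

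Over all members the median number of aligned residues was 30.5, against 44 in all genes, and 115 predicted sites (33.4%) had fewer than 10, against 28.4%. The damaging share of members was 20.9% at sites with fewer than 10 aligned residues and 21.4% at sites with 10 or more. In all genes these shares were 22.1% and 19.1%. PolyPhen-2 gave no prediction for 19 member sites (5.23%), against 10.03% in the other listed genes with a symbol and 16.9% of all missense sites. A matched protein structure was given for 2 member sites (0.551%), against 2.73%: R315T in c11orf54.L, with a probability of 0.988, and D1566E in kiaa1755-like.S.

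**Figure D4:**
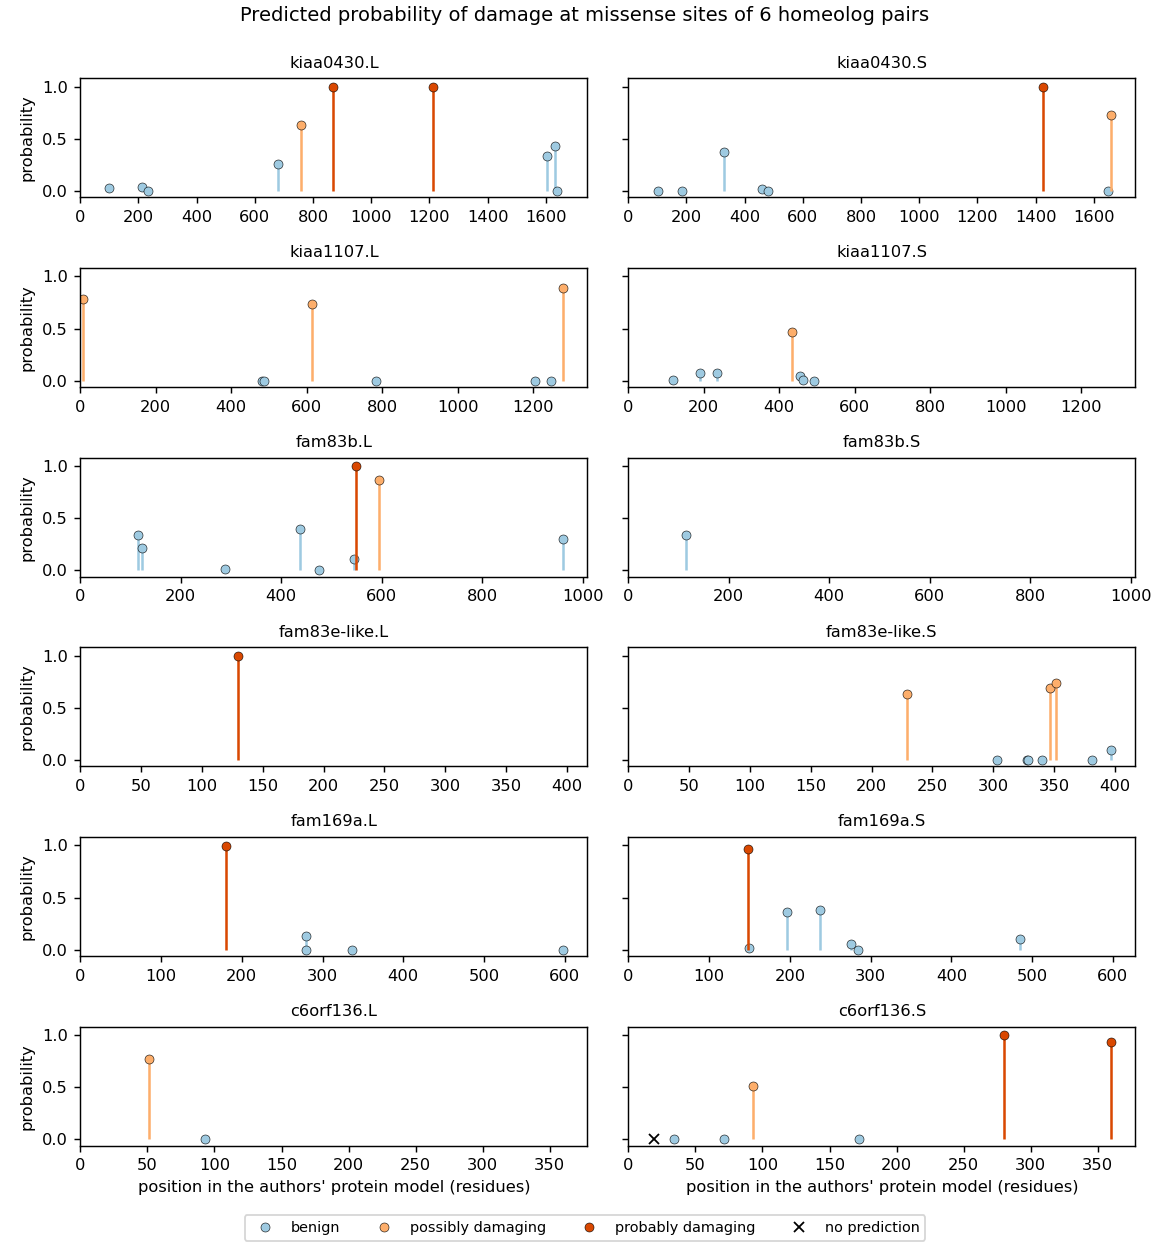
Predicted probability of damage (vertical, 0 to 1) against position in the authors' protein model (residues) for each missense site of 6 homeolog pairs, with L copies on the left and S copies on the right; colours give the predicted class and a cross marks a site without a prediction. Probably damaging sites lie in both copies of kiaa0430 and of fam169a, whereas the 3 damaging sites of kiaa1107.L lie far apart and all are in the possible class.

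Damaging shares of single copies were tested in the same way, with at least 5 predicted sites. Of 17 member copies tested, 0 passed Fisher's exact test once adjusted by Benjamini-Hochberg, and 0 reached an unadjusted p under 0.05. Of all 1112 genes tested, 0% passed and 35 had an unadjusted p under 0.05. The highest values were 3 of 6 damaging sites in c6orf136.S (Fisher's exact p = 0.0979), 3 of 8 in kiaa1107.L, 2 of 6 in kiaa2026.S and 3 of 9 in fam83e-like.S. The copies fam65b.S and fam91a1.S had 0 of 5, which allows a share of up to 43.4% (Wilson). The human counterpart of fam65b is RIPOR2, an inhibitor of the small GTPase RhoA, and fam91a1 ties vesicles to golgins at the trans-Golgi network. The adjusted p was 1 for each of these 6 copies.

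In a few further copies 2 damaging sites each were found. The RhoGAP gene fam13b.S held 3 missense sites, of which D333A (0.913) and H696N (0.95) were probably damaging, and 1 synonymous site. In its paralog fam13a.S both missense sites were damaging, K62N at 0.775 and I426V at 0.966. In fam214a.S 2 of 4 sites were damaging, G981S at 0.989 and C463S at 0.725. In kiaa2026.S, L159I (0.972) and R487G (0.978) were both probably damaging, and its other 4 sites were benign. The first 3 copies had fewer than 5 predicted sites and were not tested.

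The members were also grouped by roles of their human or mouse counterparts, in 7 lists that hold 61 of the 193 pairs and are not complete. Among the pairs they leave out are kiaa1107, c10orf118-like, c17orf53-like and c2orf69, whose related roles are given above. Values with these pairs added were computed after the data were seen. Each of these pairs holds at least 1 damaging site, and other pairs of related role may be missing. None of the lists had a member past either adjusted threshold. Proteins of endosomes, the Golgi, lysosomes and membrane traffic formed 12 pairs, and 16 of their 24 copies (66.7%) were listed. They held 33 missense and 60 synonymous sites, or 35.5% (26.5 to 45.6), and 3 of 32 predicted sites were damaging, or 9.38% (3.24 to 24.2). Of the 8 copies tested for the missense fraction, 1 lay above the other genes and 7 below, where 66.6% of all tested genes lie below. With kiaa1107 and c10orf118-like added, the missense fraction was 37.9% (30.4 to 46.0) and 9 of 54 predicted sites were damaging, or 16.7% (9.02 to 28.7). Of the 12 copies then tested for the missense fraction, 3 lay above the other genes and 9 below.

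Within this list, 2 of the 3 damaging sites were in kiaa1033-like.S, D52H (0.814) and F1052V. The other was L486W (0.892, over 119 aligned residues) in fam160a1-like.L, a relative of the FHIP proteins that link vesicles to dynein. The related fam160b1, named fhip2a in RefSeq, had 1 missense and 4 synonymous sites in L and 3 and 12 in S. The pair kiaa1468, whose human counterpart RELCH moves cholesterol between recycling endosomes and the trans-Golgi network, had 3 and 5 in L and 4 and 2 in S, none of them damaging. The copies of fam134b and fam109a were not listed.

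Cytoskeletal and signalling proteins formed 12 pairs, with 13 of 24 copies listed. They held 45 missense and 88 synonymous sites, or 33.8% (26.4 to 42.2), and 11 of 44 predicted sites were damaging (25%, 14.6 to 39.4). The fam83 paralogs made up 7 of these pairs and 9 of the listed copies, with 33 missense and 76 synonymous sites (30.3%, 22.4 to 39.5). Single copies lay between 12.5% and 50.0%. The lowest was fam83e-like.L at 12.5%, followed by fam83h.S at 14.3%, fam83h.L at 15.4%, fam83b.S at 16.7% and fam83g.L at 17.4%. The highest were fam83e-like.S at 45.0% and fam83b.L and fam83g.S at 50.0%. Of 8 fam83 copies tested, 3 lay above the other genes and 5 below, a split near that of all tested genes. No copy of fam83a or fam83f was listed, and fam83c had 1 missense and 3 synonymous sites in L alone.

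The 7 damaging fam83 sites lay in 4 copies: 3 in fam83e-like.S, 2 in fam83b.L (T549K and Q594H, 0.866), and 1 each in fam83e-like.L (P130T) and fam83g.L (A666V, 0.691). The last rested on a single aligned residue. Few aligned residues were behind all scores of fam83g, 1 at each of the 4 sites of the L copy and 2 at each of the 4 predicted sites of the S copy.

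The RNA processing and ribosome assembly list held 10 pairs with 7 of 20 copies listed, 25 missense and 27 synonymous sites (48.1%, 35.1 to 61.3), and 6 damaging of 25 predicted sites (24%). Of these sites, 18 missense and 11 synonymous ones belonged to kiaa0430. The next gene was kiaa1429, whose human counterpart VIRMA is part of the enzyme complex that writes N6-methyladenosine on mRNA, with 2 and 6 in L and 2 and 9 in S. Its damaging site was N136K (0.816) in L. The terminal nucleotidyltransferase genes fam46a, fam46b and fam46d, the tRNA ligase factor c14orf166, fam50a and fam120b had no listed copy.

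The list for secreted, matrix and extracellular proteins was the largest, 18 pairs, and was drawn broadly, so that it includes the Golgi-associated kinase gene fam198a. Of its 36 copies, 11 (30.6%) were listed, with 15 missense and 19 synonymous sites and 3 damaging of 15. The damaging sites were L114F (0.988, over 59 aligned residues) in fam5b.S, D171H (0.937, over 1) in fam198a.S and T32S (0.497, over 2) in fam150b-like.S. The human counterpart of fam5b is the neural protein BRINP2, fam198a encodes a Golgi-associated kinase, and fam150b encodes a ligand of the receptor kinase ALK. No copy of fam3a, fam3c, fam5c, fam69a or fam132a was listed, while fam3b had 2 missense and 6 synonymous sites in L alone.

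The remaining lists were small. Of 3 ciliary pairs, c21orf59-like, which helps assemble ciliary dynein arms, held 3 missense and 1 synonymous sites in L and 2 and 5 in S, with N61S (0.925) its damaging site. The membrane-binding protein gene fam92a1 held 1 and 2 in L alone, and fam92b-like had no listed copy. Of 2 mitochondrial pairs, c2orf47 held 2 and 3 in L and 1 and 0 in S, none damaging, and fam73b was not listed. With c2orf69 added there were 9 and 7, and 1 of 9 predicted sites was damaging. Of 4 pairs for DNA repair, chromatin and cell division, c11orf30-like.L with 1 and 3 was the 1 listed copy of 8. With c17orf53-like added, 3 of 10 copies were listed, with 7 and 8 sites and 2 of 7 predicted sites damaging. The copies of the replication factor kiaa0101, the BRCA1 partner fam175a and the mitotic gene fam64a were not listed. The 132 pairs outside the lists held 235 missense and 286 synonymous sites (45.1%, 40.9 to 49.4) and 48 damaging of 218 predicted sites (22%).

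The last comparison asked whether the L and S copies of a pair differ. Both copies were listed in 48 of the 193 member pairs (24.9%), 30 had L listed by itself, 33 had S, and 82 (42.5%) had no listed copy. Over all 8660 pairs both were listed in 15.3% and neither in 49.9%. Within the 48 pairs, L held more missense sites in 14 (29.2%), S in 23 (47.9%), and they were equal in 11 (22.9%). Over all 1329 pairs with both copies listed, L held more in 30.9%, S in 39.9%, and 29.3% were equal. The L copies together held 114 missense and 172 synonymous sites and the S copies 142 and 203. Averaged over all 193 pairs, with 0 for copies not listed, there were 0.85 missense sites in L and 1.03 in S, a difference (L minus S) of -0.18. Over all pairs it was 0.72 in L and 0.86 in S.

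The pairs with the largest gaps ran in both directions. In fam83b, 9 missense sites lay in L and 1 in S, and in fam83e-like 1 lay in L and 9 in S. In c2orf69, 6 lay in L and S was not listed, and in kiaa2026 L was not listed and 6 lay in S. In c6orf136, 2 lay in L and 7 in S, and in c10orf118-like 1 in L and 6 in S. Synonymous sites were unequal as well in some of these pairs, with 9 in L and 5 in S of fam83b, 7 and 11 in fam83e-like, and 6 and 12 in c10orf118-like.

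A test of missense numbers alone (two-sided exact binomial against equal numbers, pairs with at least 6 missense sites) called 0 of 19 member pairs after Benjamini-Hochberg adjustment, while 17% of the 578 pairs tested passed. The 4 pairs fam83b, fam83e-like, c2orf69 and kiaa2026 had an unadjusted p under 0.05 (21.1%), as did 35.6% of all pairs tested. The exact binomial adjusted p was 0.0906 for fam83b and for fam83e-like. It was 0.0992 for c2orf69 and kiaa2026. There the copy that is not listed was entered as 0, although variation in it may have gone unseen. Unlisted copies in every other pair of this test, over the whole table too, were entered the same way. With 6 missense sites in a pair, 6 against 0 is the largest gap possible, so no pair with 6 could pass. The 0 of 19 therefore includes member pairs whose outcome was fixed. Besides c2orf69 and kiaa2026, these are c17orf53-like, fam167a-like, fam63b, fam91a1, kiaa1211-like and kiaa1462-like. Whether pairs with slightly more missense sites could pass was not worked out. Set against synonymous sites, by Fisher's exact test in pairs with at least 10 sites, 0 of 26 member pairs passed and 0 had an unadjusted p under 0.05, while 0% of 769 pairs passed and 25 had an unadjusted p under 0.05. The smallest p among members was that of kiaa0319l, with 2 missense and 0 synonymous sites in L and 2 and 10 in S (Fisher's exact p = 0.0659, adjusted p = 1). For fam83g, with 4 and 19 in L and 5 and 5 in S, it was 0.0895 in the same exact test, and for fam83e-like it was 0.194.

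**Figure D5:**
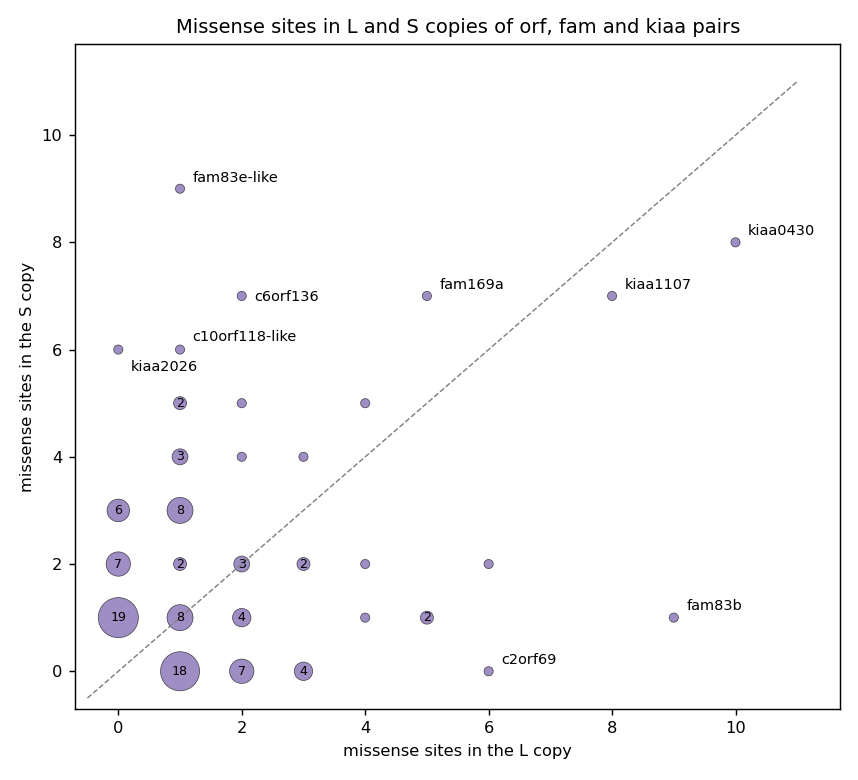
Missense sites in the L copy (horizontal) and the S copy (vertical) of orf, fam and kiaa pairs with at least 1 listed copy, an unlisted copy being drawn at 0; circle area and the number inside give how many pairs share a point, and the dashed line marks equal numbers. Most pairs have 3 or fewer sites in each copy, kiaa0430 and kiaa1107 lie high near the line, and fam83b and fam83e-like lie far from it on opposite sides.

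Of the 48 pairs, 8 had damaging sites in both copies, 14 in L but not S, 5 in S but not L, and 21 in neither copy. Damaging sites in L but not S thus made up 29.2% of these pairs and those in S but not L 10.4%, against 18.6% and 22.4% of all 1329 pairs, a difference that was not tested. In all member copies, damaging sites were 36 of 153 predicted sites in L (23.5%, 17.5 to 30.9) and 37 of 191 in S (19.4%, 14.4 to 25.6), intervals that overlap. The same change at the same position was found in both copies of 1 member pair of 48 (2.08%), against 3 of 1329 pairs (0.226%): S114N in fam83b, with a probability of 0.339 over 36 aligned residues in each copy. Any shared position number was found in 4 member pairs (8.33%), against 2.03% of all pairs. With differing residues it was found in fam65b (L704V in L and A704S in S), c6orf136 (A93P and S93P) and c1orf52 at position 93, though L and S positions are not aligned to each other.

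Finally, the member sites were compared with all sites in features the naming rule does not use. Exchanges within a class of similar residues were 32.5% of member sites and 32.7% of all sites. Sites in the first 30 residues of the protein were 6.06% and 6.63%. Serine was the reference residue at 42 member sites (11.6%), against 9.56% of all sites, and 11 of the 40 predicted serine changes (27.5%) were damaging, against 19.7%. For proline the damaging shares were 35.3% (6 of 17) in members and 37.1% in all genes, and for glycine 40% (4 of 10) and 36%. The most frequent exchanges in members were aspartate to glutamate and threonine to alanine, 11 sites each (3.03%), against 2.02% and 2.34% of all sites. In the 81 member copies with changes at 2 or more positions, the median distance between the closest pair was 30 residues, as in all genes, and it was 10 residues or less in 28.4% of member copies and 31.9% of all.

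Many placeholder names have been replaced. In the RefSeq table of the assembly Xenopus_laevis_v10.1, 96 member pairs kept the same name, 33 had another symbol, 1 had several and 63 found no match. Among renamed pairs are kiaa0101 (pclaf), kiaa0020 (pum3), fam175a (abraxas1), c18orf8 (rmc1) and fam49b (cyrib). Missense sites were listed in 17 of 66 copies of the renamed pairs (25.8%) and in 81 copies with an unchanged name (42.2%). In pairs without a match, 59 of 126 copies were listed (46.8%). These pairs include kiaa0430, kiaa1429, kiaa1468 and fam65b, whose human counterparts have other names. Renamed thus means only that another symbol was found, and the share of 25.8% does not cover every renamed gene. The missense fractions were 47.3% (36.3 to 58.5) in renamed pairs and 40.7% (36.2 to 45.2) in pairs with an unchanged name. In pairs without a match the missense fraction was 43.53% (38.18 to 49.04). Of the 35 missense sites in renamed pairs, 15 belonged to kiaa1107 alone.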

How the data were processed

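Variant sites were counted in whole tadpoles, 3 libraries joined, with 1 library per group. Tools named in the submitters' processing notes are TopHat, SAMtools, Trimmomatic and CASAVA (1.8.2). How reads were aligned, how variants were called and on which build is not given in the sources used here; genome positions were not used, and depth per site is unknown. The authors deposited 3 tables: numbers of variant sites per gene, PolyPhen-2 (HumVar) results per site, and gene names with L and S identifiers. The predicted probability is a fraction, per the file headers, between 0 and 1. The difference of profile scores between residues is a score in the deposited table and enters no result. Of 11604 entries, 1 header line counted as a gene was left out; class numbers of the other 11603 equalled tallies of the sites.

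Names were lower-cased and -like endings removed. Copies were joined by identifier. Fisher's exact test, two-sided, compared each gene with the rest of the table, given 5 or more sites (for damage, 5 or more with a prediction), and L with S in pairs having at least 10 sites, adjusted by Benjamini-Hochberg over all tested, threshold 0.05 (Python 3.11.15, scipy 1.17.1, pandas 2.3.3, checked on simulated data). The simulated shifts were large and lay in genes and pairs with more sites than most members hold. This check therefore does not show what the tests could detect in members. Pooled values and lists have counts and Wilson 95% intervals, without a test. Members and lists were chosen with earlier results of these data known.

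Copies were named for the most missense sites (10), the most damaging sites (8), the smallest p, the largest L and S differences, and up to 3 per role list, 43 copies in 30 pairs. Names outside this rule were picked with values in view. Alternatives used other site minimums, other damage thresholds, fewer genes, and an exact binomial test. Genes without any missense site are not listed, which raises every missense fraction, and most where genes hold few sites.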

Additional observations from a re-analysis of the deposited data

How the results depend on the processing

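Members past the adjusted threshold numbered 0 in all 3 Fisher's exact tests under every alternative run. Over all genes, those past the threshold for the missense fraction numbered 66 as designed, 28 when every gene was tested, 14 after removing the top 1% by site number (116 genes, each above 30 sites), 4 among genes with a symbol and 94 at a minimum of 10 sites. For the damaging share they numbered 1 with probably damaging sites only and 1 at a probability of at least 0.9, and for L against S, 1 pair with at least 20 sites and 98 by the exact binomial test. The members' missense fraction stayed between 40.6% and 44.6%. Their damaging share was 9.30% with probably damaging sites only (all genes 6.96%). In the other listed genes with a symbol, 704 of 8675 predicted sites were probably damaging. The members' share was 10.5% at a probability of at least 0.9 (all genes 7.36%), against 21.4% with at least 10 aligned residues. Under both of those stricter classes the damaging shares of kiaa1107.L and fam83e-like.S turned from above to below the other genes, with a Fisher's exact adjusted p of 1 in each case, by construction, since all their damaging sites are in the possible class. Adding 2 pairs of related role, chosen after seeing the data, took the damaging share of the membrane traffic list to 16.7%, against 9.38% as designed. The adjusted p of c6orf136.S for the missense fraction ranged from 0.111 to 0.306 and that of fam83g.L from 0.251 to 0.656. Most listed member copies hold 1 or 2 missense sites. The missense fraction was tested in the 66 of 159 copies with at least 5 missense plus synonymous sites. No paired analysis was possible because the tables join the libraries and each group has 1 library.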

Other observations

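The structure matched to kiaa1755-like.S covers 505 residues at an identity fraction of 0.64, and that matched to c11orf54.L covers 309 residues at the same fraction. In kiaa1755-like.S, A1424T and D1566E rested on 98 aligned residues each and C579S on 1. Whether this protein model holds a single gene throughout was not tested, so the matched part, with D1566E, may not belong to the gene of that name. Sites whose prediction rested on a single aligned residue numbered 36 in members, of which 10 (27.8%) were damaging, against 27.3% of such sites in all genes. Positions with several variant residues held 4 member sites (1.1%), against 2.69% of all missense sites. Changes at adjacent positions were found in 6 of 81 member copies (7.41%), against 7.89% in all genes. In fam169a the probably damaging site was V180L in L and I148L in S, the second beside F149L, which was benign at 0.017.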
